A study of Mus musculus with 32 samples.

Results

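WT meninges were compared with WT hippocampus, the membranes that wrap the brain with a region inside it, gene by gene over the whole transcriptome. The comparison rested on 8 of the 32 RNA-seq libraries of a study that asked whether near-infrared light through the skull acts on meningeal lymphatic vessels in the 5xFAD model of Alzheimer's disease. The 4 meninges and 4 hippocampus libraries came from male WT mice, 6 months of age on a C57BL/6J background, without light treatment. These mice were littermates of 5xFAD mice without the transgenes. Untreated below means without near-infrared light. The methods give control mice anesthesia, scalp shaving and indoor lighting, and do not state this for the WT mice taken for RNA. Each library was made from 1 hippocampus or 1 meningeal preparation. Members were the genes with an FPKM (a level scaled to transcript length and sequencing depth, which can be compared between genes) that reached 1 in 3 or more of the 8 libraries, which kept 14144 of the 22337 genes in the deposited table. Of these, 11031 reached that level in 3 libraries of each tissue, 2028 only in the meninges, 1011 only in the hippocampus and 74 only when the tissues were counted together. The labels give no dissection day, library batch or layer of the meninges, so tissue and any such batch cannot be told apart. They also do not state whether both tissues came from the same mice, and the methods describe perfusion for other experiments without stating it for the tissue taken for RNA.

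The meninges consist of the dura next to the skull, the arachnoid and the pia. They are built from fibroblasts that lay down collagen, arachnoid barrier cells joined by tight junctions, blood vessels, lymphatic vessels and a resident immune population of macrophages, mast cells and lymphocytes, part of which enters from the marrow of the skull. The hippocampus is a cortical fold needed for memory, made of excitatory pyramidal and granule neurons, inhibitory interneurons, astrocytes, oligodendrocytes and microglia, with a dense network of capillaries that form the blood-brain barrier.

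Promoter stretches of 7 genes are shown because these genes mark sources of RNA described below, and each holds a short motif known from genes of its kind. They are the 100 bases before the RefSeq start (GRCm38.p6), 5′ to 3′ on the strand of the gene, with the letters searched on both strands in capitals. GGATTA is the core that the cone-rod homeobox factor Crx is known to bind in photoreceptors and pinealocytes, TATAAA is the TATA box, and TGACGTCA is the cyclic AMP response element. Of the 32841 mouse promoter windows of 300 bases in the RefSeq table (250 before and 50 after the start), 7.06% held GGATTA, 13.6% held TATAAA and 1.79% held TGACGTCA on either strand. In windows of 100 bases before the start these shares were 2.3%, 5.56% and 1.15%. A match is a description of these letters and not evidence of binding.
Crx, pineal gland, chr7:15879956-15880055 (minus strand): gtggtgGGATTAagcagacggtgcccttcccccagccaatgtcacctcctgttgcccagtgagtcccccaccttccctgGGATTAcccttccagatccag
Sag, pineal gland, chr1:87803580-87803679 (plus strand): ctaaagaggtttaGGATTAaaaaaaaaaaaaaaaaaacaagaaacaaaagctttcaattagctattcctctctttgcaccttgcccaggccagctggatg
Gngt1, pineal gland, chr6:3993908-3994007 (plus strand): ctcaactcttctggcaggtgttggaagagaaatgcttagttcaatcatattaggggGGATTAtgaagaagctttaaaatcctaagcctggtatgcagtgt
S100a8, neutrophils, chr3:90668971-90669070 (plus strand): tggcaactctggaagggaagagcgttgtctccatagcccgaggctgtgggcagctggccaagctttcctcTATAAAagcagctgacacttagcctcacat
Mcpt4, mast cells, chr14:56062311-56062410 (minus strand): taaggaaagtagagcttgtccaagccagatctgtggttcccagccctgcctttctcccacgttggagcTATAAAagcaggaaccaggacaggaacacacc
Bpifb9b, nasal glands, chr2:154307144-154307243 (plus strand): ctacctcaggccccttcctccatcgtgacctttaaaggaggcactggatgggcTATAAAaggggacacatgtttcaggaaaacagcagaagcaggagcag
Sst, hippocampal interneurons, chr16:23890845-23890944 (minus strand): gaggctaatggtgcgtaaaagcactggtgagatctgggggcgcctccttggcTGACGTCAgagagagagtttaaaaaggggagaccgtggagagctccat
The stretches were chosen after the motifs had been searched. The 3 of pineal genes carry GGATTA, with 2 copies before Crx itself. Of the 9 genes of the pineal list matched to a promoter, only these 3 held GGATTA, in either window. The letters TATAAA begin 30 bases before the start in S100a8, 32 in Mcpt4 and 47 in Bpifb9b. The letters TGACGTCA begin 48 bases before the start of Sst.

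Total counts ranged from 6601143 to 14541203 in the meninges and from 14726383 to 23856476 in the hippocampus, so values in the hippocampus rest on more reads. The meninges also varied more, with a Pearson correlation of log values between libraries of 0.939 to 0.967, against 0.991 to 0.994 within the hippocampus and 0.613 to 0.715 between the tissues. Fitted by edgeR to each tissue alone, the biological coefficient of variation was 0.359 in the meninges and 0.126 in the hippocampus. Replicates within a tissue differed by more than counting error (chi-square per degree of freedom 10.9 to 74.9). A pair of libraries stood apart on some genes. The mean correlation with the own tissue was 0.946 for meninges replicate 1 (0.950 to 0.952 for the others). It was 0.992 for hippocampus replicate 2 (0.991 to 0.993 for the others). Meninges replicate 1 had the highest level of neuronal genes of the 4 meninges libraries, and hippocampus replicate 2 carried genes of the choroid plexus, whose values are given with these genes below.

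Genes were called by edgeR's quasi-likelihood test on the counts where the adjusted p was under 0.05 and the tissues differed 2-fold or more. By this rule 4000 genes (28.3%) were higher and 3071 (21.7%) were lower in the meninges. Changes of at least 16-fold were found for 1073 genes (7.59%) higher and 387 (2.74%) lower in the meninges. All 4 meninges libraries lay above all 4 hippocampus libraries for 5035 genes (35.6%), and the reverse held for 4307 (30.5%). The median log2 fold change over all tested genes was 0.07, meninges minus hippocampus, the direction used for every fold change here. The counts of each list below are read against these shares. A gene near 0 in one tissue was tested only because the other tissue lifted it over the level filter and then had to differ, so a list's count is a description of its tested members. Members tested through the meninges alone were 13 of 22 for fibroblasts, 9 of 13 for border-associated macrophages, 10 of 14 for fibrillar collagens, 14 of 18 for chemokines and 18 of 23 for mesenchymal transcription factors, and those tested through the hippocampus alone were 10 of 18 for subfield neurons and 8 of 14 for GABA receptors. Where nearly all tested members of a list passed this way, the FPKM summed over all listed genes in the table is given in place of a count. No count was found in any hippocampus library for 129 tested genes, and in any meninges library for 6. Without both libraries that stood apart, 3811 genes were higher and 3151 lower of 13720 tested. These libraries were picked after the values were seen, by neuronal and choroid plexus genes. Neuron and choroid plexus counts without them are therefore no separate check. Without them the counts described below stayed at 18 lower for neurons, 12 lower for oligodendrocytes, and 14, 13 and 14 higher for choroid plexus, border-associated macrophages and fibrillar collagens, went from 19 to 17 higher for fibroblasts, and moved by over 1.5 times for respiratory chain subunits (from 8 to 14 higher).

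**Figure D1:**
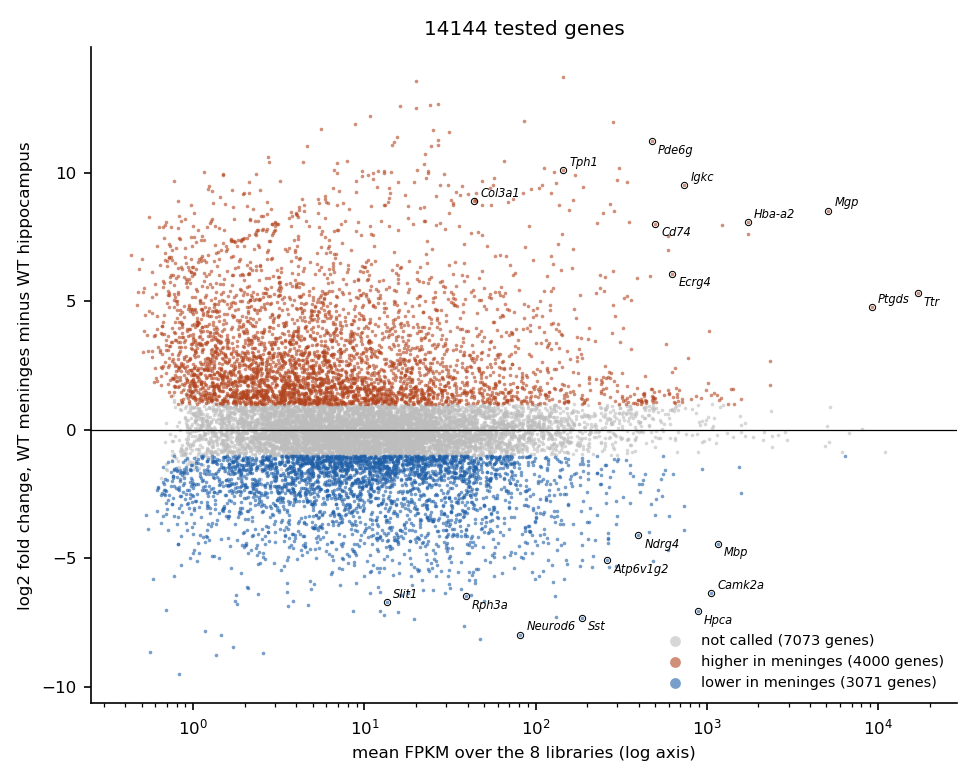
Log2 fold change (meninges minus hippocampus, y axis) against the mean FPKM over the 8 libraries (x axis, log scale) for the 14144 tested genes, with 4000 genes higher in the meninges in red, 3071 lower in blue and the rest in grey. Ttr, Ptgds and Mgp lie far to the right above 0, and Camk2a, Hpca and Mbp lie to the right below it.

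Genes of the meningeal stroma were higher in the meninges. Of the 22 tested genes on a list of meningeal fibroblast markers, 19 were higher and 0 lower, against 28.3% and 21.7% of all tested genes. Their median log2 fold change was 5.11 where that of all genes was 0.07. As 13 of the 22 were tested through the meninges alone, part of both contrasts follows from the level filter. Since RNA was taken from whole tissue, more cells of a type and more RNA per cell cannot be told apart, here or for any list below. Mgp (matrix Gla protein, an inhibitor of calcification, chr6:136872435-136875823, minus strand) had an FPKM of 11078, 13422, 7571 and 8841 in the 4 meninges libraries, replicates 1 to 4 in order, and 28.9, 34.8, 22.1 and 21.4 in the 4 hippocampus libraries. Every meninges library was far above every hippocampus library, with a log2 fold change of 8.53 ± 0.32 (SE, n = 4 against 4, adjusted p = 4.13e-08). Col1a2, a chain of type I collagen, was at 279.7, 206, 333 and 269 in the meninges and 0.79, 0.8, 0.4 and 0.43 in the hippocampus (8.74 ± 0.33, adjusted p = 4.13e-08). Its partner Col1a1 was at 264, 143, 189 and 135 and 0.96, 0.86, 0.47 and 0.59 (7.92 ± 0.35). Replicate 1 was highest for Col1a1 and replicate 3 for Col1a2, and in neither did the tissues overlap. Decorin (Dcn), a small proteoglycan that binds collagen, had a log2 fold change of 4.42 ± 0.3, with 694, 585, 375 and 573 in the meninges against 35, 28.4, 16.2 and 21.7. The hippocampus held measurable Dcn while its type I collagen was below 1. Pdgfra, a receptor found on fibroblasts and also on oligodendrocyte precursors, did not differ beyond its spread (6.52, 4.42, 6.2 and 5.24 against 5.62, 5.87, 6.16 and 6.9, log2 fold change -0.03 ± 0.16, 95% interval -0.38 to 0.32).

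Genes of the extracellular matrix divided by kind. All 14 tested fibrillar and beaded collagens were higher in the meninges (median log2 fold change 5.83), with summed FPKM between 799 and 1096 in the meninges and between 8.46 and 15.4 in the hippocampus. The 20 tested genes for leucine-rich proteoglycans and collagen processing were also all higher (median 4.58), among them Pcolce, which enhances the cleavage of procollagen (6.28 ± 0.47), biglycan (Bgn, 6.44 ± 0.21) and lumican (Lum, 5.51 ± 0.31). Col3a1, the collagen of pliable tissue, was at 117, 86.6, 85.8 and 59.6 in the meninges and 0.22, 0.21, 0.06 and 0.29 in the hippocampus (8.89 ± 0.47). Of 15 basement membrane genes 12 were higher, with a smaller median of 2.01. Basement membranes also surround brain capillaries. Of the type IV collagen chains Col4a1 was 3.85-fold higher, while Col4a2 (10.8, 7.21, 8.55 and 6.73 against 5.45, 4.02, 3.55 and 4.82) reached 0.85 ± 0.19, short of the 2-fold threshold, and Agrn, which organizes the synaptic and vascular basement membrane, was not called (-0.43 ± 0.2, adjusted p = 0.0788). The matrix of neural tissue went the other way. Of 12 genes for lecticans and perineuronal nets 8 were lower in the meninges, including brevican (Bcan, -3.14 ± 0.52), neurocan (Ncan, -3.29 ± 0.61) and the link protein Hapln4 (-4.54 ± 0.45). The cartilage proteoglycan aggrecan (Acan, 1.81 ± 0.37) and tenascin-C (Tnc, 3.1 ± 0.31) were the exceptions, both higher in the meninges.

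Of 19 genes on a list for arachnoid barrier cells and their transporters, 17 were higher and 0 lower in the meninges (median 4.10). Of these 19, 9 were tested through the meninges alone. The same libraries held choroid plexus genes, described below, and the part of each source in this list was not tested. Prostaglandin D2 synthase (Ptgds, which also carries retinoids in cerebrospinal fluid) was at 14404, 17567, 20262 and 18616 in the meninges and at 789, 820.2, 552 and 336 in the hippocampus (4.77 ± 0.3, adjusted p = 3.79e-07). The lowest meninges library was above the highest hippocampus library by more than 10-fold. The peptidase Dpp4 (2.17, 2.07, 2.84 and 2.24 against 0.19, 0.12, 0.08 and 0.12, 4.1 ± 0.3) and the organic anion transporter Slc22a6 (13.9, 10.8, 9.98 and 10.1 against 0.7, 0.54, 0.25 and 0.19, 4.66 ± 0.37), both known from the arachnoid barrier, were separated without overlap. The GABA and taurine transporter Slc6a13 was 10.7-fold higher. The 2 members not called were Cldn11 (a claudin of the arachnoid and of myelin, 0.36 ± 0.26) and Nnat (neuronatin, -0.27 ± 0.15), each abundant in both tissues. Of 19 tight and adherens junction genes 10 were higher and 2 lower. Cldn3 (6.5 ± 0.36) and Cldn1 (4.32 ± 0.38), claudins of epithelial barriers, were higher in the meninges, while Cldn10 (-3.6 ± 0.42) and N-cadherin (Cdh2, -1.7 ± 0.23) were higher in the hippocampus.

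Genes of several signalling systems were higher in the meninges. Of 17 genes of retinoid metabolism 13 were higher and 0 lower (median 1.67), among them the cellular retinoic acid binding protein Crabp1 (192, 292, 351 and 301 against 1.13, 1.3, 1.66 and 1.53, 7.6 ± 0.27), Crabp2 (5.79 ± 0.34) and Aldh1a2, which makes retinoic acid (46.7, 28.9, 25.9 and 19.9 against 2.28, 2.5, 1.03 and 0.95, 4.12 ± 0.39). All 8 libraries kept the tissues apart for these genes. In the insulin-like growth factor system 9 of 11 genes were higher and 0 lower. Igf2 was at 637, 828, 534 and 1082 in the meninges and 10.3, 27.8, 11.7 and 5.64 in the hippocampus (5.89 ± 0.47), with its highest hippocampal value in replicate 2. Igf1 was 20.3-fold, Igfbp6 33.5-fold, Igfbp2 13.5-fold and Igfbp4 6.33-fold higher. The TGF-beta and BMP system had 20 of 29 genes higher and 1 lower. Its target genes Id1 (3.73 ± 0.24) and Id3 (3.45 ± 0.3), which encode inhibitors of differentiation, were higher, Id2 was not called (0.54 ± 0.22), and the receptor Bmpr1b was the one member lower in the meninges (-2.38 ± 0.3). Among Wnt ligands and modulators the direction was split, with 10 higher and 5 lower of 21. The secreted antagonists Sfrp4 (352, 384, 183 and 159 against 1.66, 2.11, 1.44 and 1, 7.23 ± 0.41) and Sfrp2 (5.41 ± 0.37) and the agonist Rspo3 (3.15 ± 0.25) were higher in the meninges. Wnt7b (0.77, 0.05, 1.11 and 0.69 against 19.2, 17.2, 12 and 17.3, -4.72 ± 0.51), a ligand by which neural tissue instructs its vessels, Rspo2 (-2.35 ± 0.26) and Dkk3 (-2.5 ± 0.23) were higher in the hippocampus. The 2 R-spondins therefore had opposite signs.

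Vascular genes were higher in the meninges but not uniformly. All 16 blood endothelial markers were higher (median 2.52), with 19.6-fold for VE-cadherin (Cdh5), 16.1-fold for endomucin (Emcn, a mucin of veins and capillaries), 6.94-fold for Pecam1 and 5.02-fold for Plvap, which forms the diaphragms of leaky vessels. Smooth muscle and pericyte genes were higher for 13 of 15 (median 2.83), led by the contractile genes Tagln (148, 171, 145 and 92.6 against 2.7, 1.69, 1.95 and 1.49, 6.41 ± 0.24) and Acta2 (98.3, 112, 96.8 and 78 against 4.32, 2.91, 4.46 and 2.15, 4.82 ± 0.29). The list for blood-brain barrier endothelium had 9 of 14 higher and 2 lower, with a smaller median of 1.47. Cldn5, the claudin of endothelium, was at 114, 147, 56 and 49.1 in the meninges and 25.6, 21.9, 22.2 and 29.2 in the hippocampus (1.84 ± 0.34), and the meninges fell into a higher pair, replicates 1 and 2, and a lower pair. Mfsd2a, the lipid transporter that restrains transcytosis in brain capillaries, was at 6.91, 3.63, 1.14 and 1.92 and 21.8, 16.2, 11.3 and 15.9 (-2.2 ± 0.46, adjusted p = 0.00139), lower in every meninges library. The transferrin receptor Tfrc was also lower (-1.23 ± 0.25), the glucose transporter Slc2a1 (0.69 ± 0.21) and the anion transporter Slco1a4 (0.76 ± 0.2) did not reach 2-fold, and the thyroid hormone transporter Slco1c1 did (1.35 ± 0.24). Vegfa was higher in the meninges at low FPKM (1.42, 2.58, 5.75 and 10.6 against 0.67, 0.83, 1.05 and 0.69, 2.11 ± 0.42).

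Lymphatic markers were higher for 9 of 12 genes and lower for 1. Lyve1, the hyaluronan receptor that also marks macrophages, was at 9.71, 5.64, 4.99 and 4.18 in the meninges and 0.26, 0.09, 0.12 and 0.14 in the hippocampus (5.22 ± 0.41, adjusted p = 1.47e-06). The chemokine Ccl21a, made by lymphatic endothelium, was at 113, 169.8, 90 and 84.7 and 1.23, 0.87, 0.67 and 1.12 (6.78 ± 0.32), a level that is uncertain because this gene has near-identical copies. Replicate 1 was highest for Lyve1 and replicate 2 for Ccl21a. Podoplanin (Pdpn), which arachnoid cells and fibroblasts also carry, was 6.7-fold higher, and the valve factor Foxc2 was at 8.61, 15.9, 8.04 and 9.19 against 0.18, 0.2, 0 and 0.04. Prox1, the factor that specifies lymphatic endothelium and is also abundant in granule neurons of the dentate gyrus, had the opposite sign: 0.19, 0.18, 0.78 and 0.36 in the meninges and 16.6, 18.3, 11.1 and 21.7 in the hippocampus (-5.16 ± 0.43). The guidance receptor Nrp2 did not differ beyond its spread (0.03 ± 0.19, 95% interval -0.39 to 0.45).

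Macrophage genes separated by resident type. All 13 tested markers of border-associated macrophages were higher in the meninges (median 5.99), with summed FPKM from 1032 to 2347 against 17.8 to 28.6. Mrc1 (the mannose receptor CD206) was at 14.8, 9.66, 12.6 and 11.9 and 0.48, 0.5, 0.31 and 0.25 (4.93 ± 0.26), and Pf4 at 199, 220.0, 101 and 246 and 2.31, 1.21, 2.38 and 1.56 (6.62 ± 0.38). The chemokine Ccl8 (297, 486, 64.8 and 471 against 0.16, 1.5, 0.52 and 0.5, 8.93 ± 0.81) had the largest standard error of these 3, with replicate 3 well below the other meninges libraries. Of 14 microglia markers 7 were lower and 2 higher in the meninges. P2ry12, the purinergic receptor of resting microglia, was at 5.23, 2.55, 1.47 and 2.71 in the meninges and 45.7, 40.8, 46.1 and 42.5 in the hippocampus (-3.53 ± 0.3). Tmem119, another microglial marker, had the opposite sign without reaching 2-fold (62.9, 65.7, 26.9 and 40.5 against 29.8, 26.8, 20.7 and 25.8, 0.89 ± 0.27), and the tissues overlapped. Sall1 (2.7 ± 0.2) and Olfml3 (2.59 ± 0.26) were higher in the meninges. Csf1r and Trem2, shared by both kinds of macrophage, were not called (-0.46 ± 0.19 and 0.06 ± 0.19).

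**Figure D2:**
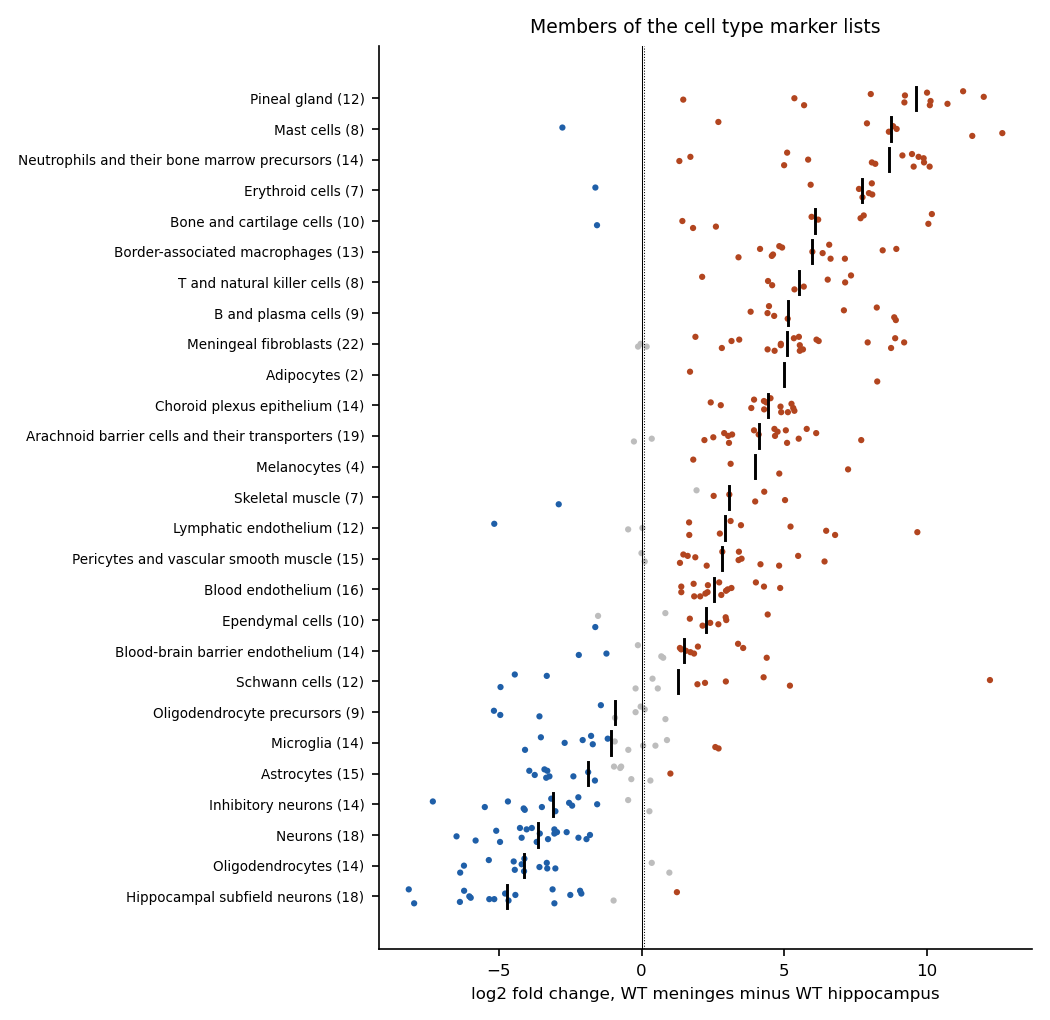
Each point is a tested gene of a cell type marker list placed by its log2 fold change (meninges minus hippocampus, x axis), red if higher and blue if lower in the meninges and grey if not called, with the list's median as a black bar and its number of tested genes in brackets. Pineal, mast cell and neutrophil markers have the highest medians over tested genes, from 8.67 to 9.62, most of which were tested through the meninges alone, the hippocampal subfield neuron list has the lowest, -4.72, and the dotted line is the median of all genes, 0.07.

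Antigen presentation and innate immune genes were higher in the meninges. All 11 tested genes of MHC class II presentation were higher (median 4.70). The invariant chain Cd74 was at 933, 1274, 540.4 and 1223 in the meninges and 5.12, 6.07, 2.36 and 1.36 in the hippocampus (8.01 ± 0.56), and H2-Ab1 at 463, 676, 303 and 735 and 1.19, 1.96, 0.72 and 0.88 (8.79 ± 0.45), with replicate 3 the lowest meninges library for both. Complement genes were higher for 14 of 17 and lower for 2. The inhibitor Serping1 was 41.9-fold higher, while the C1q chains, which microglia also make in quantity, were higher by less, with 3.56-fold for C1qa, 3.4-fold for C1qb and 2.57-fold for C1qc. The integrin Itgam, a complement receptor (-1.53 ± 0.29), and Masp1 (-1.64 ± 0.46) were lower. The 20 chemokine genes summed to an FPKM of 394 to 1038 in the meninges and 323 to 366 in the hippocampus. Of the 18 tested, 14 passed the level filter through the meninges alone. The 2 called lower were Cx3cl1 (80.3, 37.8, 25.6 and 29.1 against 239.9, 236, 223 and 237, -2.49 ± 0.34), the neuronal ligand of microglia, and Cxcl14 (-2.93 ± 0.31). Of 16 interferon-stimulated genes 14 were higher and 0 lower. Ifitm3, a restriction factor of membranes, was at 731, 901, 442 and 579 and 16.5, 20.7, 20.3 and 12.4 (5.2 ± 0.3), and Ifit2 was not called (0.29 ± 0.24).

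Lymphoid, myeloid and mast cell genes were mostly higher in the meninges. The 14 listed B and plasma cell genes summed to an FPKM of 212 to 619 in the meninges and 10.5 to 19.1 in the hippocampus, where 4 were at 0 in every library, and 5 were under the level filter. Igkc, the constant region of the kappa light chain, was at 726, 1919, 1165 and 2102 in the meninges and 1.16, 4.54, 1.25 and 0.86 in the hippocampus (9.53 ± 0.64), and Igha, of the IgA class secreted at mucosal and meningeal surfaces, was at 268, 462, 419 and 369 and 0.52, 0.6, 0.73 and 0.23 (9.46 ± 0.35). Reads of immunoglobulin constant regions can be shared among close copies, so these levels are uncertain in size. The 14 T and natural killer cell genes, of which 6 were under the filter, summed to 22.4 to 59.9 and 1.23 to 1.82, with Cd3e at 1.04, 2.64, 0.22 and 3.7 and 0.03, 0.19, 0 and 0.07 (4.58 ± 0.96). Cd3g was at 2.84, 7.64, 1.88 and 10 against 0, 0.05, 0 and 0.05, and for both genes replicates 2 and 4 were the higher meninges libraries. The 14 genes of neutrophils and their marrow precursors summed to 567 to 1686 and 3.09 to 8.87. S100a8, a calcium-binding alarmin of neutrophils whose promoter is shown above, was at 685, 588, 811 and 292 and 0.68, 0.9, 0.41 and 0.63 (9.71 ± 0.41), while the granule genes Camp (88.5, 45.8, 91.8 and 20.5 against 0, 0.14, 0.09 and 0.07) and Ngp (124, 50.9, 102 and 12.8 against 0.14, 0.18, 0.11 and 0.04), made by precursors in marrow, were lowest in replicate 4. The 10 mast cell genes summed to 123 to 296 and 14.3 to 18.2, most of the latter from Kit. The chymase Mcpt4 was at 48.7, 63.3, 30.3 and 50.6 in the meninges with no count in the hippocampus. Against a floor of 3 counts in each hippocampus library this made it at least 322-fold higher. Cma1 was at 57.7, 93, 36.7 and 61.5 against 0, 0, 0 and 0.05. Kit, the receptor that mast cells need and that hippocampal neurons also express, had the opposite sign (3.53, 1.29, 2.16 and 2.12 against 17.3, 14.9, 14.4 and 13.6, -2.77 ± 0.27).

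Genes of blood, bone and nerve sheath were higher in the meninges. Hemoglobin Hbb-bs was at 6618, 3032, 1572 and 2684 in the meninges and 24.6, 35.3, 5.61 and 4.1 in the hippocampus (7.62 ± 0.84), and the heme synthesis gene Alas2, active in red cell precursors, at 38.9, 16.1, 7.59 and 8.85 and 0.07, 0.23, 0 and 0.03. Replicate 1 was highest for both. The globin copies Hba-a1 and Hba-a2 are near-identical, so their reads can be split between them. Osteocalcin (Bglap), made by osteoblasts, was at 122, 87.5, 548 and 260.2 against 0.09, 0.37, 0.4 and 0, and bone sialoprotein (Ibsp) at 49.2, 19, 32.4 and 24.4 against 0.12, 0.08, 0.19 and 0.15. Bglap2, a near-identical copy of Bglap, was at 117, 99.8, 436 and 241 against 0.18, 0, 0.62 and 0, and the 14 bone and cartilage genes summed to 843 to 1609 in the meninges and 14.4 to 23.6 in the hippocampus. Skeletal muscle genes were low in both tissues, with sums over 13 genes of 14.9 to 31.7 and 11.5 to 12.5. Tnni2 (log2 fold change 3.98), Actn3 (3.08) and Mylpf (2.53) were higher in the meninges. Acta1, the skeletal muscle actin, was the 1 member called lower in the meninges (2.42, 0.37, 1.26 and 0.59 against 8.84, 8.23, 8.03 and 9.67). Periaxin (Prx), a protein of myelinating Schwann cells, was at 2.92, 1.89, 1.69 and 4.92 in the meninges against 0.16, 0.11, 0.16 and 0.17 in the hippocampus. The central myelin gene Mbp, also on the Schwann cell list, was lower by 4.44 on the log2 scale. The 7 melanocyte genes, of which 3 were under the filter, summed to 19 to 27.5 and 2.13 to 2.7, with Mlana at 1.24, 1.88, 1.3 and 1.35 and no count in the hippocampus (at least 7.49-fold).

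The meninges libraries also held genes of neighbouring organs. The 12 listed genes of the pineal gland, which sits under the dura, had a summed FPKM from 1227 to 1760 in the meninges and from 3.59 to 8.05 in the hippocampus. Tph1, which starts the synthesis of serotonin and melatonin (chr7:46644641-46672537, minus strand), was at 471, 314, 189.7 and 187 and 0.2, 0.36, 0.47 and 0.12 (10.1 ± 0.46, adjusted p = 7.9e-08). Phototransduction genes that pinealocytes share with the retina were found too. Gnb3 was at 577, 519.7, 700.2 and 455 against 0.09, 0.18, 0.22 and 0.06 (11.99 ± 0.36), and Pde6g at 818, 893, 1057 and 1036 against 0.23, 0.67, 0.07 and 0.51 (11.22 ± 0.42). Arrestin (Sag) was at 428, 519.9, 509.8 and 352 against 1.82, 1.88, 1.55 and 1.37, Crx at 55, 41.7, 74.3 and 44 against 0, 0.02, 0.1 and 0.02, and Gngt1 at 2.79, 3.79, 4.88 and 5.53 with no count in the hippocampus (at least 30.1-fold). Asmt, the last enzyme of melatonin synthesis, was at 4.26, 4.2, 4.37 and 3.02, also without a count in the hippocampus (at least 30.1-fold). The 4 meninges libraries lay within 3-fold of each other for each of these genes.

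Choroid plexus genes were in both tissues, and unevenly. All 14 were higher in the meninges (median 4.45). Transthyretin (Ttr), the thyroid hormone carrier of cerebrospinal fluid and the most abundant transcript of the meninges, took between 1.89% and 5.01% of their counts. Its FPKM was 15349, 41237, 38074 and 38391 in the meninges and 104, 2739.8, 392 and 31.7 in the hippocampus (5.32 ± 1.21, adjusted p = 0.00246). Meninges replicate 1 was well below the other 3 and hippocampus replicate 2 was above the other 3. The folate receptor Folr1 (164, 406, 463 and 390.0 against 2.27, 27.3, 7.19 and 0.94, 5.25 ± 0.99) and the channel Kcnj13 (140.4, 248, 167 and 118 against 2.37, 35.1, 4.83 and 0.6, 3.94 ± 0.97) had the same high hippocampus library, as had the lysophospholipase Enpp2 (1394, 2173, 2400.3 and 1714 against 63.9, 326, 105 and 42) and Ecrg4, a secreted peptide of the plexus (964, 1653, 973 and 1353 against 5.44, 53.8, 11.1 and 2.09). Without meninges replicate 1 and hippocampus replicate 2 the log2 fold change was 7.73 for Ttr, 7.15 for Folr1, 6.06 for Kcnj13, 4.89 for Enpp2 and 7.70 for Ecrg4. Each was over 1.5 times the fold with all libraries, and all 14 list genes were higher. The pair was picked by such genes, so wider differences without it follow from the choice. Of 10 genes on a list for ependymal cells 7 were higher. Of these Foxj1, Dynlrb2, Cfap126 and Rsph1 belong to motile cilia, whereas Rarres2, Mia and Hdc do not, and Hdc, the enzyme that makes histamine, is also on the mast cell list. Ccdc153 was lower (4.76, 0.74, 3.2 and 2.29 against 5.69, 11.8, 15.5 and 2.14, -1.62 ± 0.61), a call that was lost on leaving out any of meninges replicates 2 to 4 or hippocampus replicates 2 and 3, with -1.25, -1.67, -1.58, -1.48 and -1.18 in this order. It was also lost without the pair, where the difference was -1.84 (adjusted p = 0.0503). The part of attached choroid plexus in these values was not tested.

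Olfactory, nasal and pituitary genes, some of them named after their values were seen, were found as well. The olfactory marker protein Omp, of mature olfactory sensory neurons, was at 296, 218, 188 and 165 in the meninges and 0.44, 0.15, 0.37 and 0.14 in the hippocampus (9.52 ± 0.42). The secreted lipid-binding proteins Bpifb9b (1829, 74.9, 298 and 532 against 0.86, 1.14, 0.54 and 0.76) and Bpifb9a (703, 36.3, 111 and 205 against 0.3, 0.32, 0.36 and 0.33) ranged over more than 10-fold among the meninges libraries and were highest in replicate 1 and lowest in replicate 2. S100a5, of olfactory sensory neurons, was at 772, 797, 323 and 547 against 0.59, 0.26, 0.79 and 0.36, and the odorant-binding protein Obp2a at 98.6, 4.99, 83.4 and 563 against 0.28, 0.15, 0.54 and 0.14. Growth hormone (Gh) was at 68.8, 1.26, 116 and 128 in the meninges and 1.2, 0.13, 0.46 and 2.78 in the hippocampus, and prolactin (Prl) at 8.82, 0.17, 8.43 and 7.22 and 0.09, 0.06, 0 and 0.4. For both hormones meninges replicate 2 was at the level of the hippocampus, and the tissues overlapped. Doc2g (78, 4.62, 17.8 and 2.9 against 0.81, 1.5, 0.94 and 1.45) and tyrosine hydroxylase (Th, 27.4, 3.57, 13.5 and 1.79 against 0.81, 0.57, 0.4 and 0.39), which mark the olfactory bulb, were highest in replicate 1. The part of such tissue in the other differences was not tested.

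**Figure D3:**
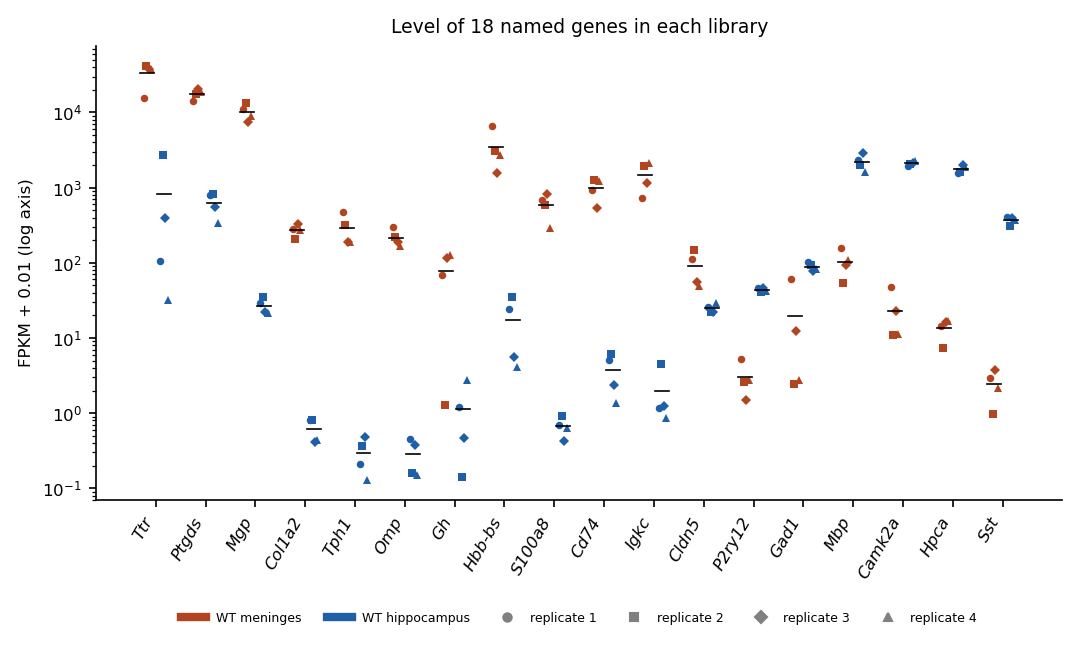
FPKM plus 0.01 (y axis, log scale) of 18 named genes in each WT meninges (red) and WT hippocampus (blue) library, with a marker shape for each replicate number and a black bar at the mean of 4. Hippocampus replicate 2 lies above the others for Ttr (2739.8), meninges replicate 2 lies among the hippocampus libraries for Gh (1.26), and meninges replicate 1 lies above the other meninges libraries for Gad1 (60.3).

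Neuronal genes were higher in the hippocampus. All 18 tested pan-neuronal genes were lower in the meninges (median -3.62), and their summed FPKM was 753 in meninges replicate 1 and 282 to 427 in the others, against 4075 to 4486 in the hippocampus. Camk2a, the kinase of synaptic plasticity in excitatory neurons, was at 47, 11.1, 22.7 and 11.2 in the meninges and 1944, 2051, 2097 and 2292 in the hippocampus (-6.34 ± 0.52, adjusted p = 1.92e-06). Hippocalcin (Hpca, a neuronal calcium sensor, chr4:129111570-129122036, minus strand) was at 14.4, 7.39, 16.5 and 16.6 and 1559, 1591, 2003 and 1852 (-7.07 ± 0.31, adjusted p = 6.95e-08). The hippocampus libraries were alike for both, and no meninges library came near them. The factor Neurod6, of pyramidal neurons, was at 0.15, 0.22, 1.54 and 1.06 against 147, 148, 199.6 and 151 (-7.97 ± 0.6). Vxn (-7.64 ± 0.53), the axon guidance ligand Slit1 (-6.7 ± 0.43), Rnf112 (-6.64 ± 0.35) and rabphilin (Rph3a, -6.48 ± 0.45) were also lower in the meninges.

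Markers of hippocampal subfields and interneurons were lower in the meninges. Of 18 subfield genes 16 were lower in the meninges and 1 higher (median -4.72), including Prox1 of the dentate gyrus given above, Wfs1 of CA1 (-2.15 ± 0.17), Bok of CA3 (-3.05 ± 0.23) and Nptx1, a secreted pentraxin (-4.78 ± 0.35). The mannosidase Man1a was the one called higher (1.24 ± 0.18). Of 14 inhibitory neuron genes 12 were lower in the meninges and 0 higher. Somatostatin (Sst), with the promoter shown above, was at 2.93, 0.97, 3.7 and 2.17 in the meninges and 408, 312, 391 and 372 in the hippocampus (-7.31 ± 0.34), and cholecystokinin (Cck) at 107, 15.2, 47.8 and 14.8 and 1029.9, 1032, 1319.9 and 1173 (-4.68 ± 0.61). Neuropeptide Y (Npy) was at 126, 84.4, 37.9 and 39 against 188, 189, 211 and 233 (-1.55 ± 0.36). Gad1, which makes GABA, was at 60.3, 2.4, 12.5 and 2.77 against 101, 94, 77 and 83.1 (-2.21 ± 0.84, adjusted p = 0.0354), with replicate 1 close to the hippocampus and the other meninges libraries far below. This call was lost in 7 of the 8 fits that left out 1 library, and without replicate 1 and hippocampus replicate 2 the difference was -3.90 (adjusted p = 0.000326). Meninges replicate 1 was picked by its neuronal genes, so a wider difference without it follows from the choice.

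Most synaptic and channel genes were lower in the meninges. Of 20 genes of the presynaptic release machinery 19 were lower in the meninges (median -3.42), with Snap25 at 319, 139, 196 and 143 against 1269, 1175, 1345 and 1263 (-2.96 ± 0.26). The exception was Slc17a6, the vesicular glutamate transporter of subcortical and sensory neurons (13.2, 5.53, 14.2 and 13 against 3.81, 3.32, 2.77 and 2.34, 1.84 ± 0.28). All 14 GABA receptor genes were lower (median -3.85), led by Gabra5, the extrasynaptic subunit enriched in hippocampus (6.18, 0.1, 1.54 and 0.33 against 82.8, 87.1, 94.7 and 96.5, -5.41 ± 0.88). Of 16 ionotropic glutamate receptor genes 12 were lower and 0 higher, with Gria2 at 15.7, 1.73, 5.22 and 2.67 against 182, 185, 182 and 183 (-4.8 ± 0.63) and Grin1 at -3.71 ± 0.47. Of 18 postsynaptic density genes 16 were lower. Neurogranin (Nrgn), which buffers calmodulin, was at 4.5, 2.08, 3.82 and 1.37 against 213, 239, 305 and 272 (-6.48 ± 0.36), while Dlg4, the scaffold PSD-95, had a smaller difference (-1.17 ± 0.18). Voltage-gated sodium and calcium channel genes were lower for 17 and higher for 3 of 24. The 3 were Cacna1g (2.39 ± 0.27), Scn7a, a channel of glia and peripheral nerve (2.22 ± 0.37), and Cacna2d2 (1.21 ± 0.32), whose call was lost without meninges replicate 4 (0.98). Without both libraries that stood apart, 2 channel genes were higher and 16 lower. Potassium channel genes were lower for 18 and higher for 2 of 26, the inward rectifiers Kcnj15 (9.34 ± 0.55) and Kcnj8, of pericytes (1.35 ± 0.2).

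Glial genes divided by cell type. Of 14 oligodendrocyte genes 12 were lower in the meninges and 0 higher (median -4.11). Myelin basic protein (Mbp) was at 158, 53.6, 93.1 and 108 in the meninges and 2361, 1975, 2914 and 1615 in the hippocampus (-4.44 ± 0.34), Mobp at 24.5, 2.91, 15.8 and 11.9 and 602, 439, 694 and 368 (-5.35 ± 0.57), and Mog, which peripheral myelin lacks, at 1.4, 0.09, 0.31 and 0.75 and 41.2, 40.1, 59.6 and 32.7 (-6.22 ± 0.49). Replicate 3 was the highest hippocampus library for each and replicate 4 the lowest. Of 15 astrocyte genes 9 were lower and 1 higher (median -1.87). The glutamate transporter Slc1a2 was at 13, 3.37, 16.5 and 6.19 against 184, 161, 171 and 171 (-3.93 ± 0.45) and Gfap at 35.3, 17.6, 29.9 and 16 against 263, 245, 234 and 219 (-3.34 ± 0.26). Glutamine synthetase (Glul) was not called (232, 197, 92 and 147 against 266, 236, 230.0 and 232, -0.36 ± 0.2), and the connexin Gjb6, which the arachnoid also carries, was at the 2-fold threshold (1.01 ± 0.21), and its call was lost at 0.96 without both libraries that stood apart and at 0.88 to 0.97 on leaving out meninges replicate 1 or 2 or hippocampus replicate 3 or 4. Precursors of oligodendrocytes gave 4 of 9 genes lower and 0 higher.

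Transcription factors parted into mesenchymal and forebrain sets. The 26 mesenchymal and cranial factors summed to an FPKM of 196 to 347 in the meninges and 12.8 to 26.9 in the hippocampus. Of the 23 tested, 18 passed the level filter through the meninges alone. Foxc1, needed for the meninges to form, was at 2.54, 5.57, 6.91 and 9.3 against 0.05, 0.1, 0.14 and 0.03 (6.21 ± 0.51), Prrx1 at 16.8, 24.2, 23.5 and 22.6 against 1.26, 1.21, 1.15 and 0.94 (4.13 ± 0.18), Msx1 at 42.4, 134, 85.6 and 73.8 against 3.92, 14, 6 and 2.3 (3.64 ± 0.55) and Zic4 at 10.3, 22.2, 16.6 and 13.5 against 0.53, 0.79, 0.25 and 0.46 (5.32 ± 0.33). Msx1 was highest in hippocampus replicate 2 among its tissue. Of 22 forebrain factors 18 were lower and 1 higher (median -2.87). Neurod2 (-4.71 ± 0.32) and Emx1 (-3.11 ± 0.42) were lower, and Neurod1, known from the pineal gland as well as from new granule neurons, was higher (31.9, 32.4, 58.1 and 46.7 against 9.82, 11.7, 7.94 and 11.3, 1.99 ± 0.21). By the family column of the deposited table, 279 of 1068 factors were higher and 219 lower (26.1% and 20.5%). C2H2 zinc fingers leaned toward the hippocampus, with 57 higher and 115 lower of 455, while homeobox factors (31 and 14 of 60), bZIP factors (23 and 3 of 45) and Rel factors (8 and 1 of 10) leaned toward the meninges.

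**Figure D4:**
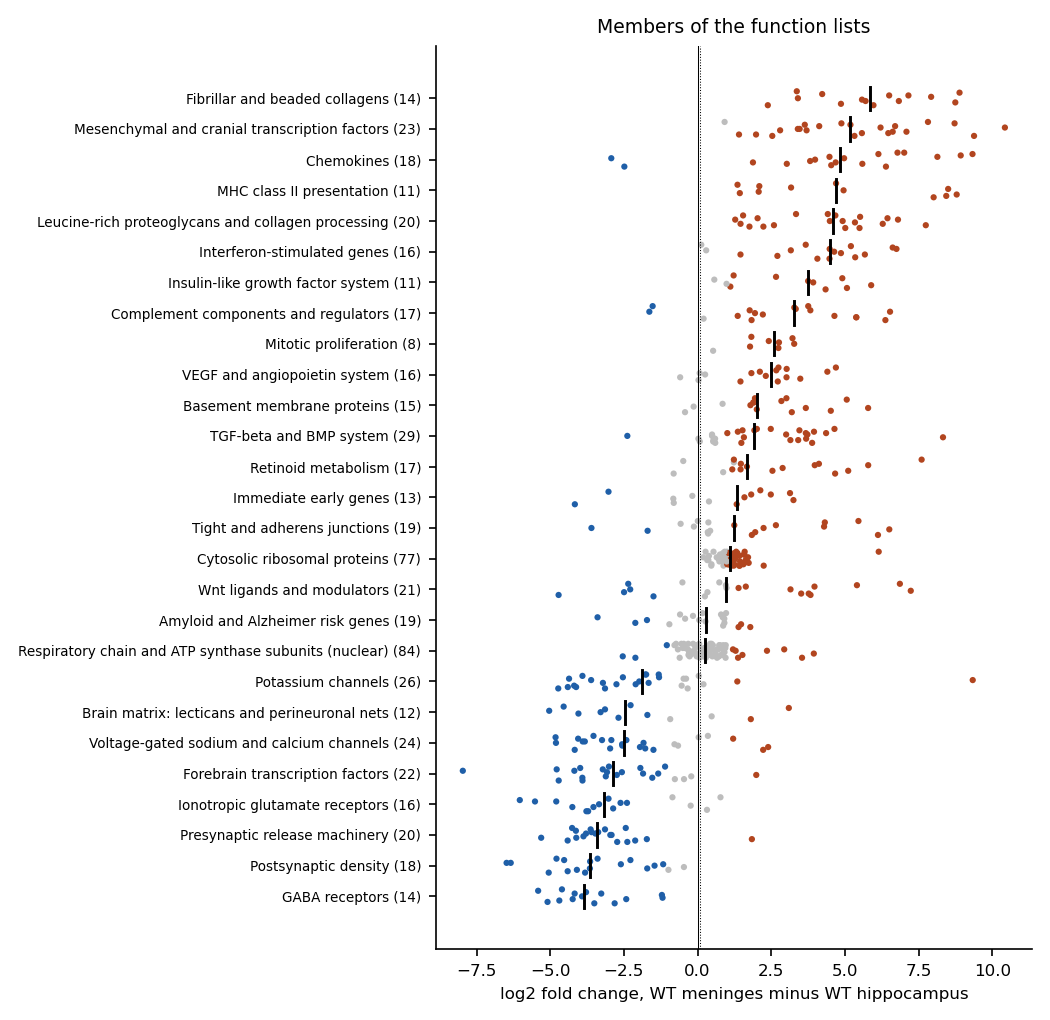
Each point is a tested gene of a function list placed by its log2 fold change (meninges minus hippocampus, x axis), coloured as in the plot of cell type lists, with the list's median as a black bar and its number of tested genes in brackets. Fibrillar and beaded collagens have the highest median, 5.83, and GABA receptors the lowest, -3.85.

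Some abundant genes did not differ between the tissues beyond their spread. The 10 most abundant genes without a called difference and with an interval within 2-fold were mt-Co3, mt-Co2, Fth1, Cst3, Actb, Ppia, mt-Nd4, Tmsb4x, Aldoa and Ubb. Beta-actin (Actb) was at 3614, 3455, 2056 and 2192 in the meninges and 2863, 2943, 2842 and 2860.2 in the hippocampus (log2 fold change -0.07 ± 0.22, 95% interval -0.55 to 0.41). The meninges had both the highest and the lowest Actb value. The mitochondrial gene mt-Co3 was at 7089, 8768, 9457 and 8106 and 7043, 7662, 8734 and 8053 (0.03 ± 0.16, interval -0.32 to 0.37). Cystatin C (Cst3), a protease inhibitor of cerebrospinal fluid, was at 4438, 6048, 4654 and 6411 and 4410.1, 4550.2, 5317 and 4483 (0.15 ± 0.18, interval -0.25 to 0.55). Nuclear-encoded respiratory chain and ATP synthase subunits were mostly not called, with 8 higher, 3 lower and 73 of 84 not called (median 0.24), and 14 were higher and 2 lower without both libraries that stood apart. Cytosolic ribosomal protein genes were higher for 47 of 77 and lower for 0 (median 1.09). Their summed FPKM was 41558 to 75098 in the meninges, highest in replicate 4, and 22677 to 28343 in the hippocampus, and Rpl41 was at 2547, 3706, 2831 and 5432 against 916, 1025, 1257 and 972 (1.73 ± 0.25).

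Genes tied to amyloid and to Alzheimer's disease risk differed little as a group, with 3 higher, 3 lower and 13 not called of 19. Apoe, the lipid carrier of astrocytes and macrophages, was at 6078, 9239, 6163 and 6345 in the meninges and 3785, 3536, 3596 and 3378 in the hippocampus (0.91 ± 0.18, adjusted p = 0.00111), without overlap and short of 2-fold. The amyloid precursor App was at 131, 102, 113 and 109 and 233, 219, 205 and 213 (-0.96 ± 0.14), also short of 2-fold, and reached -1.02 (adjusted p = 0.000364) and the call without both libraries that stood apart. Meninges replicate 1, picked by its neuronal genes, was also the highest meninges library for App, so this call is no separate check. Clusterin (Clu, -0.16 ± 0.14, interval -0.46 to 0.15) and Aplp2 (0.17 ± 0.15) were not called, while Aplp1 (-2.11 ± 0.21), Bin1 (-1.72 ± 0.15) and tau (Mapt, 23.5, 7.94, 12.5 and 12.8 against 190.3, 184, 183 and 186, -3.4 ± 0.35) were lower in the meninges. Immediate early genes gave 7 higher and 2 lower of 13. Fos (32.5, 34.5, 32.7 and 43.8 against 10.7, 12.8, 12 and 10.5, 1.59 ± 0.16) and Dusp1 (2.13 ± 0.25) were higher in the meninges, Egr1 was not called (-0.18 ± 0.35), and Arc (4.48, 0.38, 0.73 and 0.93 against 19.1, 63, 21.9 and 15.4, -4.16 ± 0.75) and Egr3 (-3.02 ± 0.38) were higher in the hippocampus. The 20 proliferation genes, of which 12 were under the level filter, summed to 19.2 to 27.9 in the meninges and 5.62 to 6.47 in the hippocampus, with Top2a at 1.39, 1.07, 1.21 and 1.58 against 0.06, 0.14, 0.1 and 0.22.

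The called genes also differed in a feature the comparison did not use. In the GENCODE vM21 annotation of GRCm38, genes higher in the hippocampus spanned a median of 33.5 kb from first to last base, genes higher in the meninges 18.5 kb and genes not called 24.2 kb. Spans over 100 kb were found for 25.04%, 11.5% and 12.57% of these. By the KEGG column of the deposited table, 44 of 65 genes of ECM-receptor interaction were higher and 6 lower, and the counts were 33 and 2 of 40 for complement and coagulation and 77 and 7 of 98 for hematopoietic cell lineage. The glutamatergic synapse (25 and 52 of 106), the synaptic vesicle cycle (12 and 35 of 66) and long-term potentiation (7 and 31 of 60) leaned toward the hippocampus. The spliceosome (6 and 5 of 129), the proteasome (7 and 0 of 43) and oxidative phosphorylation (13 and 12 of 113) held few called genes beside the 28.3% and 21.7% of all genes.

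The difference between the tissues was then followed into the disease model, where 3 meninges and 4 hippocampus libraries came from untreated 5xFAD mice of the same age. These mice carry transgenes with human mutations of familial Alzheimer's disease, expressed in neurons under the Thy1 promoter. In them, 3700 genes (24.9%) were higher and 3061 (20.6%) lower in the meninges, of 14852 genes tested in a fit of both genotypes. Among genes tested in both fits, the 3080 higher in both made up 77% of the 4000 WT calls and 94.5% of the 3259 5xFAD calls among these genes, and the 2612 lower in both made up 85.05% of 3071 and 87.1% of 2999. The change of the tissue difference itself was tested as an interaction. It was higher in 5xFAD for 6 genes (0.0404%) and lower for 203 (1.37%), with 1756 at an unadjusted p below 0.05.

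For all 203 genes the mean FPKM was higher in 5xFAD than in WT hippocampus, by more than 2-fold for 188, whereas the mean in the meninges was lower for 126 and by more than 2-fold for 10. The interaction fit puts Cst7, a cystatin of activated microglia, at a log2 difference of 2.04 in WT and -5.58 in 5xFAD mice, a change of -7.62 ± 0.59 (SE, adjusted p = 1.35e-05). Its mean FPKM was 0.568 ± 0.17 (SD, n = 4) in WT and 171 ± 66.9 (SD, n = 4) in 5xFAD hippocampus, and 2.45 ± 1.22 (SD, n = 4) and 3.79 ± 0.893 (SD, n = 3) in the meninges. The receptor Trem2 went from 0.04 to -3.30, with means of 23.8 and 195 in the hippocampus and 25.5 and 21.0 in the meninges. The receptor Clec7a went from 5.08 to -1.46. The chemokine Ccl6 went from 3.97 to 0.30, and the interferon-stimulated Ifi27l2a from 6.73 to 2.31, Isg15 from 5.33 to 1.86 and Ifi204 from 6.00 to 0.77. For these 4 genes the meninges had the higher mean in both genotypes. The protease St14 changed sign, from 2.28 to -2.45, at an FPKM of at most 3.31. The 6 genes that changed the other way, named after their values were seen, were Zfp975, Prdm10, Lifr, Zfp943, Pcdhga1 and the provisional Gm13304, which was at 0 in all 4 WT meninges libraries and ranged from 0 to 35.2 in those of 5xFAD. With 1 library left out, the counts ranged from 0 to 16 and from 105 to 256.

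**Figure D5:**
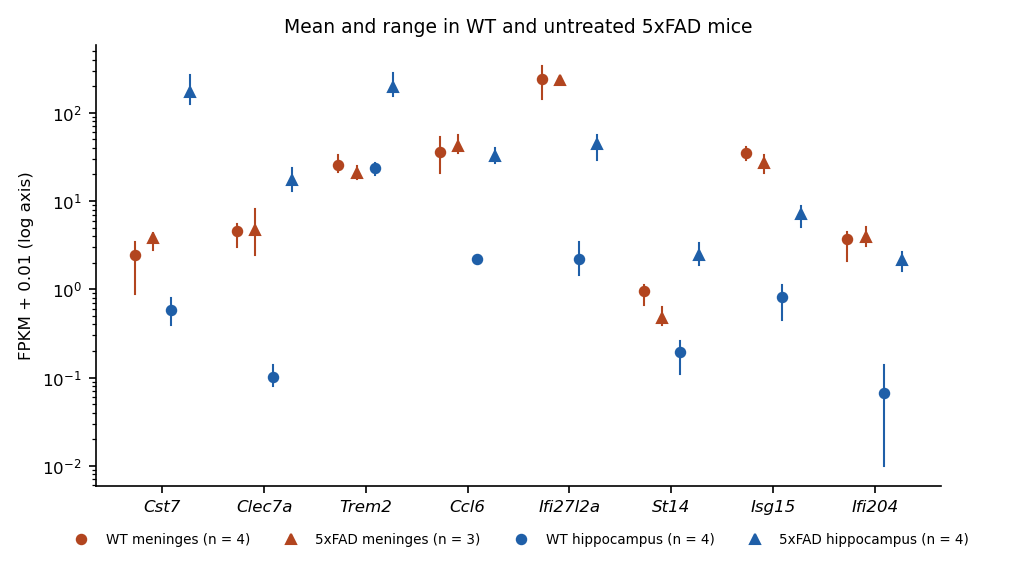
FPKM plus 0.01 (y axis, log scale) of the 8 genes with the smallest p for a change of the tissue difference, as mean (symbol) and range (line) in WT (circles) and untreated 5xFAD mice (triangles), meninges in red (n = 4 and 3) and hippocampus in blue (n = 4 and 4). The hippocampus lies higher in 5xFAD than in WT mice for all 8 genes without overlap. The meninges ranges of the genotypes overlap for 7 of the 8 genes and not for St14 (0.66 to 1.1 in WT and 0.38 to 0.62 in 5xFAD).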

How the data were processed

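RNA from single hippocampi and meningeal preparations was amplified from poly(A) tails by the Smart-seq2 method and sequenced. The authors estimated the deposited expected counts and FPKM values per gene with RSEM, according to the methods, whereas the submitters' processing notes name HISAT2, StringTie, Trimmomatic, DESeq2 and the mm10 build, so the exact steps are uncertain. The deposited expected counts were rounded to whole numbers. PCR copies were not removed by molecular identifiers, so intervals that rest on counts do not cover amplification. Columns of the authors' own comparisons were not used. Symbols were taken from a second deposited table by gene identifier, and 75 were filled from GENCODE vM21.

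Genes whose FPKM reached 1 in 3 or more of the 8 libraries were tested with edgeR 4.0.16 (R 4.3.3), with TMM factors, a quasi-likelihood fit of the 8 WT libraries and Benjamini-Hochberg adjustment over all tested genes. The genotype comparison used untreated WT and 5xFAD libraries in 1 fit with an interaction. SE is the fold change divided by the root of the F statistic, and n was 4 for each WT tissue. Folds against a tissue without counts used a floor of 3 counts in each of its libraries. The fit was tested on simulated data with the same spread in both tissues and few changed genes. That simulation does not cover the unequal spread of these tissues or the large share of genes called. No statement says that the replicates came from separate litters, and p-values measure the spread between these samples.

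Genes are named by rule: in each direction the 12 most abundant called genes with a log2 fold change of at least 4 and the 8 with the largest fold among genes with a mean count of at least 10 in the lower tissue, the 10 most abundant genes without a difference, the first 2 and 4 most abundant genes of each list with up to 3 of opposite direction, and the 8 smallest p of the genotype comparison. S100a5, Obp2a, Gh, Prl, Doc2g, Th, Crx and Gngt1 were added after their values were seen. Not every gene that the rule names is reported here. The members, lists and tests were chosen with earlier results of these data known. Alternatives were other scalings, filters, thresholds, DESeq2 1.42.0, limma 3.58.1, a replicate block, more samples and libraries left out. RefSeq promoters matched 78.4% of the tested genes, fewer than the 80% needed, so a comparison of promoter features between the directions was void and is not given.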

Additional observations from a re-analysis of the deposited data

Results flagged for a closer look

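In 275 groups of 4 libraries examined (genes with a mean FPKM of at least 1 and list sums, on the log2(FPKM + 1) scale), 13 had 1 library whose gap to its nearest neighbour, as a share of the range, was above Dixon's 95% critical value. Chance alone flags about 1 in 20 groups. In the meninges the share was 0.919 for Ttr, 0.835 for Folr1 and 0.913 for the summed choroid plexus list, each with replicate 1 as the low library. It was 0.849 for Gh, 0.916 for Prl, 0.903 for Slc17a6 and 0.936 for the summed sodium and calcium channel list, each with replicate 2 as the low library. Replicate 2 was the high library for Apoe (0.898) and for the summed amyloid and Alzheimer risk list (0.895), and replicate 4 the low one for Asmt (0.889). In the hippocampus replicate 3 was the high library for Neurod6 (0.919) and Cst3 (0.833) and the low one for the summed lymphatic list (0.868).

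The tissue difference changed between WT and untreated 5xFAD mice, by the interaction test, for 6 genes upward and 203 downward. On the log2 scale the change was -7.62 for Cst7, -6.54 for Clec7a, -5.23 for Ifi204, -4.73 for St14, -4.43 for Ifi27l2a, -3.67 for Ccl6, -3.48 for Isg15 and -3.34 for Trem2. The meninges arm of 5xFAD had 3 libraries.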

How the results depend on the processing

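Of 292 named genes called, 0 reversed under any alternative run, and 29 lost the call in at least 1 (19 without the stricter test against a 2-fold change), Gad1, Ccdc153, Gjb6 and Cacna2d2 among them. Of 44 named genes not called, 12 were called in at least 1 alternative, 5 of them with the fold threshold kept. The 4000 genes higher and 3071 lower became 2183 and 1964 of 9290 at a mean FPKM of at least 5, where fewer genes were tested, and 4701 were lower without a fold threshold (4609 in 5xFAD). Leaving out 1 library gave 3661 to 4072 and 2867 to 3188, and in 5xFAD 3481 to 3788 and 2964 to 3083. Upper-quartile factors moved the median of all genes from 0.07 to 0.265 and library size alone to 0.175, and no filter gave 0.476. The share of calls higher in the meninges was 56.6%, and 63.3% with upper-quartile factors. DESeq2 gave 4013 and 3065. Skeletal muscle, Schwann cell and proliferation lists lost their majority direction only at a mean FPKM of at least 5.

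The 6 and 203 genes of the genotype change were less stable. DESeq2 gave 20 and 394, and no filter gave 2 upward. With 1 library left out the counts ranged from 0 to 16 and from 105 to 256. The 203 became 133 without WT meninges replicate 2, 126, 131 and 114 without WT hippocampus replicates 1, 3 and 4, 105 without 5xFAD meninges replicate 1 and 128 without 5xFAD hippocampus replicate 1. The 6 became 3, 1, 16 and 1 without WT meninges replicates 1 to 4, 0 without each WT hippocampus library, 5xFAD meninges replicate 1 or 5xFAD hippocampus replicate 1, and 3 and 2 without 5xFAD hippocampus replicates 3 and 4. The cause was not tested.

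With a replicate block, 3900 and 3179 genes were called. Deviations of same-numbered libraries correlated at 0.203, 0.105, -0.026 and 0.030, so the rule for treating the numbers as pairs was not met, although the labels leave the pairing unstated, and meninges replicate 4 correlated best with hippocampus replicate 3 (0.129). The comparison of promoter features is not given because too few genes matched. Depth was lower in the meninges, which limits low levels there.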
